A study of Rattus norvegicus with 6 samples.

Results

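Haem synthesis and breakdown were followed through 9 genes in rat liver: Alas1, Alas2, Alad, Uros, Urod, Cpox, Ppox and Fech, which code for enzymes that build haem, and Hmox1, which codes for the enzyme that opens it. The members are the probes of the array whose RefSeq transcript accession belongs to one of these genes. There were 11 such probes of 61657 probes other than controls, and the 9 genes stood among 11434 genes tested. Urod and Ppox had 2 probes each and the other genes had 1. All 11 probes were well above background on all 6 arrays, so every member entered the test.

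The animals were 6 male rats of the outbred Sprague-Dawley strain, bought at 5 weeks of age, and the liver RNA of each was labelled with Cy3 and read on its own 1-colour array. The corn oil group held 3 animals given the vehicle, and the phenolphthalein group held 3 animals given the compound at 1000 mg per kg per day. Phenolphthalein is a pH indicator dye that was once sold as a laxative. How long it was given is not settled, as one label states 28 days and another 9 weeks. The labels give no time of day of sampling. All 12 markers of hepatocytes, among them albumin (Alb), were well above background on every array, and the level of Alb lay between 9.54 and 9.63 on all 6. Each group had a slide and a scan of its own (corn oil slide 1, phenolphthalein slide 2), so an effect of slide or scan and one of the compound cannot be told apart.

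Haem is made partly in the mitochondrion and partly in the cytosol. ALA synthase joins glycine to succinyl-CoA in the mitochondrion and sets the pace of the pathway; the liver uses the general form, Alas1, and red cell precursors use Alas2. In the cytosol enzymes that include Alad (ALA dehydratase), Uros (uroporphyrinogen III synthase) and Urod (uroporphyrinogen decarboxylase) build and trim the porphyrin ring. Cpox (coproporphyrinogen oxidase), Ppox (protoporphyrinogen oxidase) and Fech (ferrochelatase, which inserts the iron) complete it at the mitochondrion. Much liver haem goes into cytochromes P450, and drugs that induce P450 enzymes are known to raise Alas1 as well. Hmox1 (haem oxygenase 1) is the inducible enzyme that splits haem into biliverdin, carbon monoxide and iron, and it is abundant in macrophages that clear red cells.

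The start of Alas1 is shown because NRF-1, a regulator of mitochondrial genes, is known to act at the promoter of this gene. The stretch below runs from 60 bases before to 20 bases after the RefSeq start in build GRCr8, at chr8:115768623-115768702 on the minus strand, and is printed 5′ to 3′. Capitals mark the stretch covered by the core GCATGCGC and its reverse complement GCGCATGC, which overlap in part at the start.
Alas1: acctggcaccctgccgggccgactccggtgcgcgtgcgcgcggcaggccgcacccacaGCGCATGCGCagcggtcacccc
Searched on both strands in windows of 250 bases before to 50 bases after each start, the 8-base core was found in 827 of 33469 windows, or 2.47%. Of the 9 members, 7 had a window in the RefSeq table, and 1 of these, Alas1, held the core. The match describes the letters of the window and shows no binding. The transcript of NRF-1 itself (Nrf1, named after its values were seen) had levels of -1.37, -1.25 and -1.62 in corn oil and -1.39, -1.32 and -1.61 in phenolphthalein, where a level is log2 of a probe's processed signal minus the array's 75th percentile.

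The comparison asked which members differed between livers of phenolphthalein and corn oil animals. None of the 9 genes passed the test (limma, Benjamini-Hochberg adjusted p under 0.05 over all genes), and none had an unadjusted p under 0.05. Over all genes tested 0.0612% passed, which was 7 genes, and unadjusted p-values under 0.05 were found for 7.16% in the higher and 8.11% in the lower direction. With each probe as its own row, none of the 11 member probes passed, against 0.0614% of 19541 probes. The mean was higher with phenolphthalein for 6 members and lower for 3, with a median log2 fold change of 0.08, beside 0.01 over all genes. A higher mean was found for 51.8% of all genes. The widest estimates were those of Alas1, upward, and of Hmox1 and Alas2, downward.

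**Figure D1:**
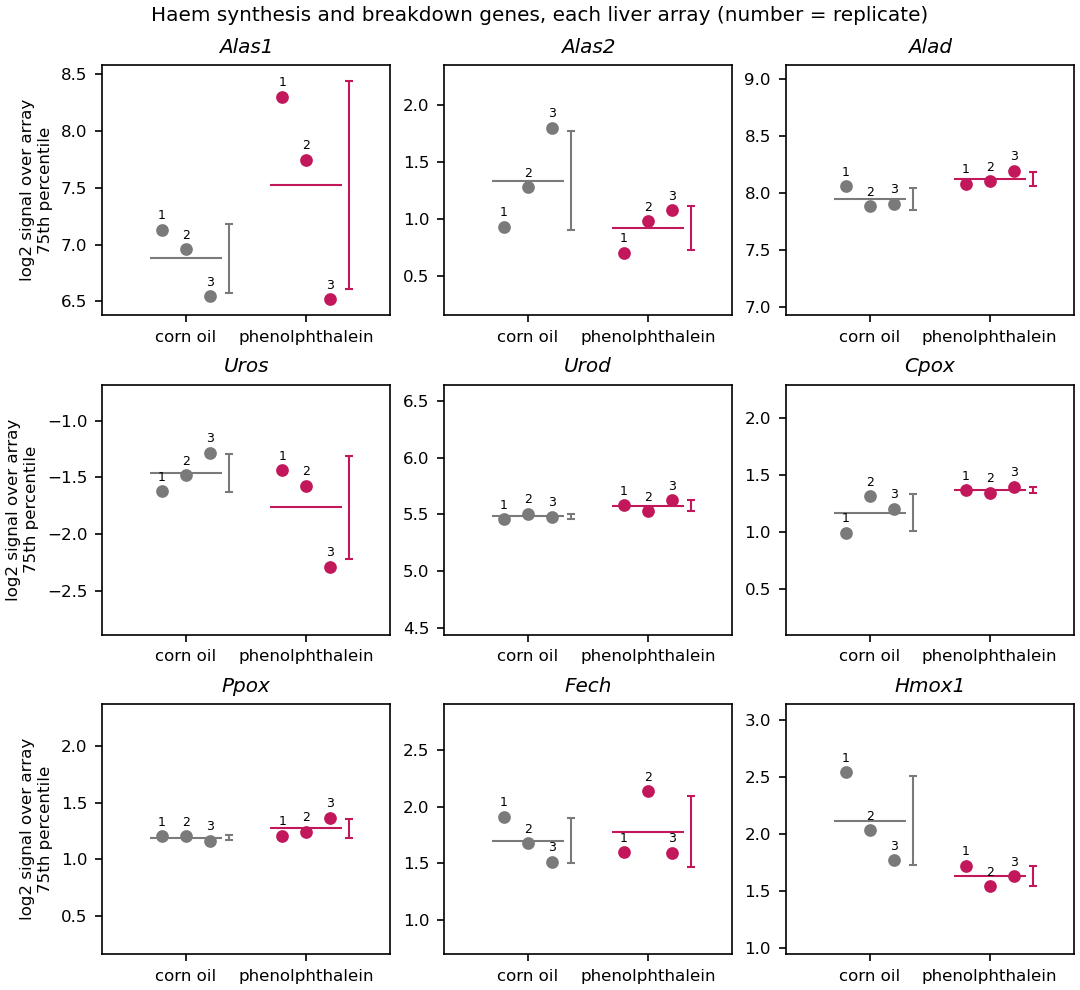
Level of each of the 9 genes on each array (vertical axis, log2 signal over the array's 75th percentile; each panel spans the same number of log2 units). Points are animals numbered by replicate, horizontal lines are group means and bars at the side are SDs (n = 3). Alas1 spread most among the phenolphthalein animals, from 6.52 to 8.30, while Urod and Ppox stayed within 5.46 to 5.62 and 1.16 to 1.37.

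Alas1 was at 7.13, 6.96 and 6.55 in corn oil replicates 1 to 3 and at 8.30, 7.75 and 6.52 in phenolphthalein replicates 1 to 3. Replicates 1 and 2 of phenolphthalein lay above every corn oil animal, and replicate 3 lay below them all, so the groups overlapped. The mean was 6.88 ± 0.30 (SD, n = 3) in corn oil and 7.52 ± 0.91 (SD, n = 3) with phenolphthalein. The log2 fold change was 0.65 ± 0.46 (SE), a 1.56-fold difference, with a 95% confidence interval of 0.716-fold to 3.41-fold (limma adjusted p = 0.537). The difference was therefore within the spread between animals, and the interval includes no change. The estimate rested on single animals: it was 1.15 without phenolphthalein replicate 3 and 0.26 without phenolphthalein replicate 1, with adjusted p = 0.216 and 0.812.

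The P450 genes that mark induction, Cyp2b1 and Cyp2b2, were higher in every phenolphthalein animal than in every corn oil animal. Within phenolphthalein they were lowest in replicate 3, as Alas1 was. Cyp2b1, a P450 of drug metabolism that responds to phenobarbital-type inducers, was at 4.41, 4.55 and 4.42 in corn oil and at 8.36, 8.22 and 7.62 with phenolphthalein. It rose by a log2 fold change of 3.61 ± 0.20 (SE), or 12.2-fold (limma adjusted p = 0.0108), and the near-identical Cyp2b2, whose probe may also read Cyp2b1, rose 11.2-fold (limma adjusted p = 0.0108). Without single arrays the Cyp2b1 difference stayed between 3.46 and 3.83, but with fewer arrays the limma adjusted p was 0.106 without corn oil replicate 1, 0.077 without replicate 2 and 0.108 without replicate 3, and 0.0886, 0.0648 and 0.00282 without phenolphthalein replicates 1, 2 and 3. For Cyp2b2 these values were 0.057, 0.0701 and 0.108, and 0.0886, 0.0648 and 0.041, at differences of 3.31 to 3.68. Without replicate 3 of each group the adjusted p was 0.0344 for Cyp2b1 and 0.232 for Cyp2b2 (limma). Phenolphthalein replicate 3, the animal with the lowest Alas1 of all 6, had a Cyp2b1 level far above every corn oil animal. It was also the lowest phenolphthalein animal for Cyp2b1 and for Cyp2b2, which was at 9.549, 9.555 and 9.19 in phenolphthalein replicates 1 to 3. A link between these levels and Alas1 was not tested. Por, the reductase that passes electrons to P450 enzymes, was at 2.78, 3.62 and 3.79 in corn oil and at 4.16, 3.98 and 4.18 with phenolphthalein. Its groups did not overlap, but its log2 fold change of 0.71 ± 0.27 (SE) did not pass (limma adjusted p = 0.304). Cyp3a23-3a1, a P450 that responds to the pregnane X receptor, had a log2 fold change of 0.35 ± 0.15 (SE; limma adjusted p = 0.344).

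Of 25 listed regulators of Alas1 and of P450 induction, 22 were tested and none passed (limma). Unadjusted limma p was under 0.05 for 2 higher and 1 lower, beside 7.16% and 8.11% of all genes. Means were higher for 14 and lower for 8, around a median log2 fold change of 0.07. The smallest p-values were those of Rxra, the partner of many nuclear receptors, at 0.29 ± 0.11 (SE), of Por, and of Egr1, an immediate early gene, at -0.89 ± 0.35 (SE). Nr1i3, the CAR receptor that switches on Cyp2b genes, was at 2.67, 3.38 and 3.31 in corn oil and at 3.53, 3.34 and 2.17 with phenolphthalein. Its lowest level was in phenolphthalein replicate 3, the animal with the lowest Alas1. Ppargc1a, a coactivator of fasting genes that acts on Alas1, was dim, between -5.61 and -3.66, with a log2 fold change of 0.64 ± 0.50 (SE; limma adjusted p = 0.573).

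Replicate 3 of corn oil and replicate 3 of phenolphthalein were alike in another respect. Among the listed regulators are genes of the circadian clock, and 5 of them were singled out after their values were seen. Dbp, a clock output gene with a strong daily rhythm in liver, was at 3.28, 3.50 and 5.92 in corn oil and at 3.79, 2.43 and 6.17 with phenolphthalein, so both animals numbered 3 were the highest of all 6. Npas2, a clock activator, was at 0.21, 0.22 and -0.78 in corn oil and at 0.13, 0.77 and -0.81 with phenolphthalein, so both animals numbered 3 were the lowest. Nr1d1, a clock repressor, was at 1.80 and 2.08 in the animals numbered 3 and between 0.68 and 1.17 in the other four animals. Per2 was at 0.51 and -0.59 in the animals numbered 3 and between -2.29 and -1.05 in the rest. Per1, from the same list, went the other way, with corn oil replicate 3 the highest of all 6 at -1.56 and phenolphthalein replicate 3 the lowest at -2.99. Of the other clock genes tested in the list, Nr1d2 was highest in the animals numbered 3, at -2.26 and -1.98. Clock was lowest in them, at -1.78 and -1.81. For Cry1 each animal numbered 3 was the lowest of its own group, at -1.04 in corn oil and -1.006 with phenolphthalein. Corn oil replicate 2, at -1.034, lay below phenolphthalein replicate 3. The likeness of the animals numbered 3 was therefore not shared by Per1 and held for Cry1 only within each group. It was described after the values were seen. In corn oil, too, Alas1 was lowest in replicate 3. The part of this pattern in the Alas1 values was not tested. Without replicate 3 of each group, a choice made after seeing the data, the log2 fold change of Alas1 was 0.98 (limma adjusted p = 0.311).

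**Figure D2:**
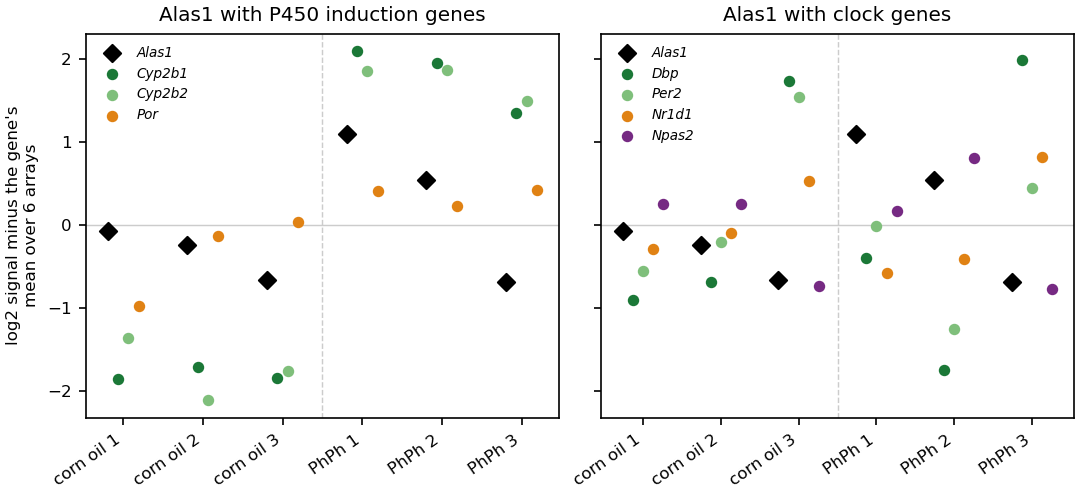
Alas1 (black diamonds) beside P450 induction genes (left) and clock genes (right) on each array, as log2 signal minus the gene's own mean over the 6 arrays (vertical axis; PhPh, phenolphthalein). Cyp2b1 and Cyp2b2 separate the groups fully, and within phenolphthalein they are lowest in replicate 3, at 1.36 and 1.5. Alas1 is low in replicate 3 of each group, at -0.66 and -0.68, where Dbp is high, at 1.74 and 1.99.

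Of the steps after ALA synthase, Alad, Cpox, Urod and Ppox had higher means with phenolphthalein, by small amounts. Alad, the enzyme that turns ALA into porphobilinogen, was at 8.06, 7.88 and 7.90 in corn oil and at 8.08, 8.10 and 8.20 with phenolphthalein. All phenolphthalein animals lay above all corn oil animals, by a log2 fold change of 0.18 ± 0.08 (SE), or 1.13-fold (limma adjusted p = 0.379). Cpox was at 0.99, 1.31 and 1.20 in corn oil and at 1.37, 1.34 and 1.40 with phenolphthalein, again without overlap, with a log2 fold change of 0.20 ± 0.10 (SE; limma adjusted p = 0.406). The groups did not overlap for the probes that stand for Urod and Ppox either, where the differences were 0.09 ± 0.07 and 0.08 ± 0.08 (SE). So 4 of 9 members had all phenolphthalein arrays above all corn oil arrays, a pattern found in 12.2% of all genes, and 1 member, Hmox1, had them all below, found in 11% of all genes. These differences were 1.15-fold or less in the 4 higher genes. With normexp background correction only Alad kept its groups apart, and the Cpox difference was 0.05. With quantile normalization Alad was the one whose groups overlapped, at a difference of 0.07. Without corn oil replicate 1 the Cpox difference was 0.11.

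The second probes of Urod and Ppox did not repeat the separation. The Urod probe A_44_P1047715 was at 5.46, 5.51 and 5.48 in corn oil and at 5.58, 5.53 and 5.62 with phenolphthalein. The other Urod probe, A_44_P1047723, was at 4.55, 4.58 and 4.52 and at 4.56, 4.50 and 4.58, with a difference of 0.00 ± 0.07 (SE). The 95% confidence interval of this difference ran from -0.17 to 0.17. For Ppox, probe A_64_P001255 was at 1.20, 1.20 and 1.16 in corn oil and at 1.21, 1.24 and 1.37 with phenolphthalein. Probe A_44_P231143 was at -1.21, -1.19 and -1.09 and at -1.37, -1.20 and -1.11, and its difference was -0.06 ± 0.09 (SE). The Ppox probes thus differed in sign, and neither passed the test.

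Uros and Fech each had 1 phenolphthalein animal that stood apart. Uros was at -1.62, -1.48 and -1.29 in corn oil and at -1.44, -1.57 and -2.29 with phenolphthalein, and the low value of phenolphthalein replicate 3 carried the difference of -0.30 ± 0.24 (SE; limma adjusted p = 0.578). Without that animal the difference was -0.04. Fech was at 1.91, 1.68 and 1.51 in corn oil and at 1.60, 2.14 and 1.59 with phenolphthalein, where replicate 2 alone was high. Its difference was 0.08 ± 0.19 (SE, limma adjusted p = 0.874), and -0.11 without phenolphthalein replicate 2. The sign also turned without corn oil replicate 3, at -0.018, and with normexp, at -0.017.

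**Figure D3:**
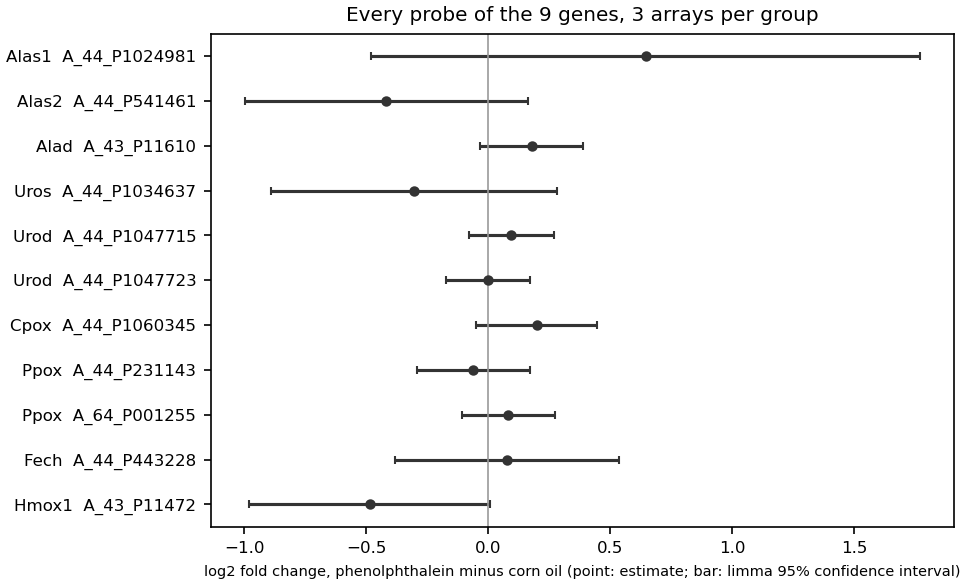
Log2 fold change of each of the 11 member probes, phenolphthalein minus corn oil (points), with limma's 95% confidence interval (bars; 3 arrays per group). All intervals include 0; that of Alas1 is the widest and that of Hmox1 runs from -0.98 to 0.01.

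Alas2, the ALA synthase of red cell precursors, was at 0.93, 1.28 and 1.80 in corn oil and at 0.70, 0.98 and 1.08 with phenolphthalein. Corn oil replicates 2 and 3 lay above all phenolphthalein animals and replicate 1 did not, so the groups overlapped. The mean was 1.34 ± 0.44 (SD, n = 3) in corn oil and 0.92 ± 0.20 (SD, n = 3) with phenolphthalein, a log2 fold change of -0.42 ± 0.24 (SE; limma adjusted p = 0.445). The 95% confidence interval ran from 0.501-fold to 1.12-fold. Without corn oil replicate 3 the difference was -0.19.

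Of 37 listed erythroid markers, 22 were tested and none passed (limma; unadjusted p under 0.05 for 0 higher and 2 lower). Their means were lower with phenolphthalein in 18 and higher in 4, and 5 had all phenolphthalein arrays below all corn oil arrays, a pattern found in 11% of all genes. The median log2 fold change was -0.25, beside 0.01 over all genes, and it was -0.14 without corn oil replicate 3 and -0.11 with normexp. The summed signal of the list, in units of the array's 75th percentile, was 1128, 1201 and 1611 in corn oil and 1006, 1240 and 1249 with phenolphthalein. The brightest haemoglobin chains weigh most in this sum. Its highest value was in corn oil replicate 3, the animal with the highest Alas2. Phenolphthalein replicates 2 and 3 had higher sums than corn oil replicates 1 and 2, but lower Alas2 than corn oil replicate 2. The haemoglobin chains, whose probes may read each other's transcripts, differed by -0.10 for Hba-a1, 0.01 for Hbb, -0.20 for Hbb-bs and -0.25 for Hbb-b1. Hbe2 differed by -0.26, Hba-a3 by -0.33, and Hbg1, which was dim and well above background on 5 arrays, by 0.21. Dimmer probes of these genes had -0.48 for Hba-a1, -0.16 for Hba-a3, -0.17 for Hbb and 0 for Hbe2. Those of Hbb-b1 had -0.06 and -0.175. The smallest p-values were those of Tal1, a transcription factor of blood precursors, at -0.30 ± 0.09 (SE), of Xk, a red cell membrane protein, at -0.24 ± 0.09 (SE), and of Ahsp, which holds free alpha-globin, at -0.38 ± 0.16 (SE; limma adjusted p = 0.239, 0.289 and 0.332). The probes of Tal1 disagreed: beside the brightest, just given, another had a difference of 0.62 with all phenolphthalein arrays above all corn oil arrays, and 3 more, one of them well above background on 2 arrays, had -0.07, -0.04 and 0.18. Tfrc, the transferrin receptor, which hepatocytes also make, had a difference of -0.09 ± 0.23 (SE). Gata1, Hbe1, Rhag, Sptb, Gfi1b and Trim10 were not well above background on any array. In whole liver, fewer cells of a type and less RNA per cell cannot be told apart, and the part of erythroid RNA in the Alas2 values was not tested.

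Hmox1 was at 2.54, 2.03 and 1.77 in corn oil and at 1.72, 1.54 and 1.63 with phenolphthalein. All phenolphthalein animals lay below all corn oil animals, by a narrow margin between corn oil replicate 3 and phenolphthalein replicate 1. The mean was 2.12 ± 0.39 (SD, n = 3) in corn oil and 1.63 ± 0.09 (SD, n = 3) with phenolphthalein. The log2 fold change was -0.49 ± 0.20 (SE), or 1.40-fold lower, with a 95% confidence interval from 0.507-fold to 1.01-fold (limma adjusted p = 0.332). Without corn oil replicate 1 the difference was -0.27, and under normexp it was -0.32, where the groups overlapped, as they also did after a median shift.

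Markers of macrophages also had lower means. Of 20 listed, 18 were tested, and none passed (limma; unadjusted p under 0.05 for 0 higher and 11 lower), but the mean was lower with phenolphthalein in all 18, with a median log2 fold change of -0.59. In 8 of them the groups did not overlap, with phenolphthalein below. Of all genes tested, 8.11% were lower at an unadjusted limma p under 0.05 and 11% had groups apart with phenolphthalein below. A higher mean was found for 51.8% of them. The smallest p-values were those of Marco, a scavenger receptor, at -1.45 ± 0.28 (SE), of Cd163, the receptor for haemoglobin bound to haptoglobin, at -0.63 ± 0.15 (SE), and of Csf1r, the receptor for macrophage growth factor, at -0.51 ± 0.13 (SE; limma adjusted p = 0.164, 0.195 and 0.207). The summed signal was 327.4, 287.9 and 241.6 in corn oil and 179.3, 187.7 and 231.1 with phenolphthalein. Corn oil replicate 1 was highest in this sum and in Hmox1. Phenolphthalein replicate 3 had a sum near that of corn oil replicate 3, but its Hmox1 was lower, at 1.63 beside 1.77. Slc40a1, the iron exporter ferroportin, was lower by a log2 value that did not pass, -0.25 ± 0.14 (SE, limma adjusted p = 0.431). Dimmer probes of Slc40a1 had -0.30, and -0.425 with all phenolphthalein arrays below all corn oil arrays. Itgam was well above background on 3 corn oil arrays but on only 1 of 3 phenolphthalein arrays. The corn oil arrays alone, where it was high, thus met the limit of 3 arrays for entry. It is counted among the 11 with unadjusted limma p under 0.05 and among the 8 whose groups did not overlap. All 18 listed markers on the array met this limit, so none was left out as dim. The part of macrophage RNA in the Hmox1 values was not tested.

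**Figure D4:**
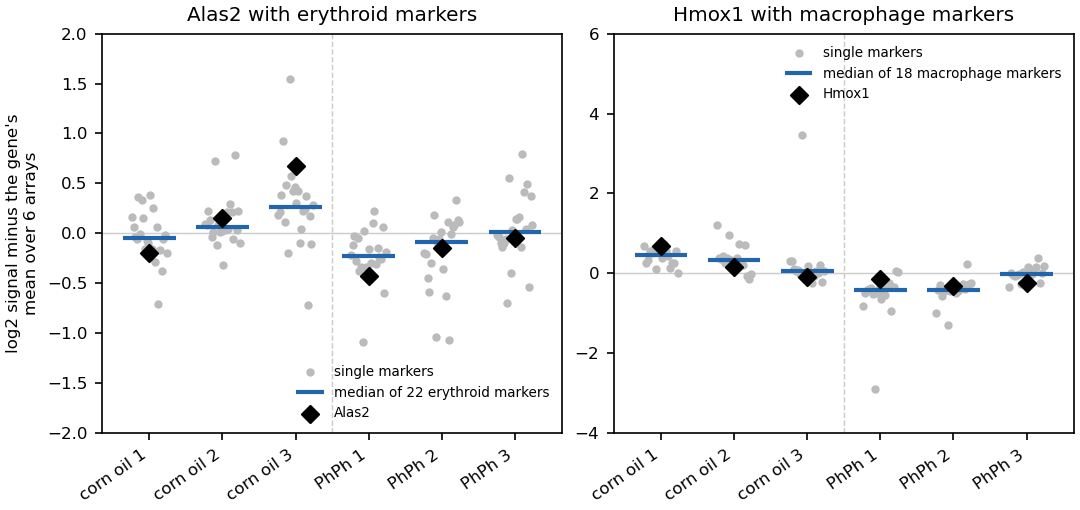
Alas2 beside 22 erythroid markers (left) and Hmox1 beside 18 macrophage markers (right) on each array, as log2 signal minus the gene's own mean over the 6 arrays (vertical axis; PhPh, phenolphthalein). Grey points are single markers, blue lines their median and black diamonds the haem gene; the macrophage median is 0.46, 0.34 and 0.05 in corn oil and -0.44, -0.42 and -0.02 with phenolphthalein.

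Stress genes that are induced together with Hmox1 did not share a direction. Of 24 listed, 20 were tested and none passed (limma). Unadjusted limma p was under 0.05 for 2 higher and 0 lower, beside 7.16% and 8.11% of all genes. Means were higher for 10 and lower for 10, with a median log2 fold change of 0.02. The smallest p-values were those of Sqstm1, an autophagy receptor, at 0.48 ± 0.10 (SE), of Txnrd1, thioredoxin reductase, at 0.59 ± 0.16 (SE), and of Fth1, the heavy chain of ferritin, at 0.15 ± 0.07 (SE; limma adjusted p = 0.168, 0.23 and 0.357), while the other 3 probes of Fth1 lay between 0.00 and 0.10. Sqstm1 and Txnrd1, both targets of the oxidative stress factor Nrf2, thus had higher means where Hmox1 had a lower one. Other genes of the list went either way, with -0.82 for Osgin1, -0.16 for Gclc, 0.06 for Nqo1, 0.18 for Gclm and 0.31 for Srxn1. Corn oil replicate 1, which was high for Hmox1, was also the highest of the 6 for Atf3, at 0.19, and for Osgin1, at 4.35, genes named after their values were seen. Bach1, the haem-sensing repressor of Hmox1, was at -1.24, -1.07 and -1.27 in corn oil and at -0.75, -0.65 and -1.23 with phenolphthalein. The difference was 0.32 ± 0.17 (SE, limma adjusted p = 0.423). Dimmer probes of Bach1 had 0.18, and 0.44 with all phenolphthalein arrays above all corn oil arrays.

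The next steps of haem breakdown gave small differences as well. Hmox2, the constitutive haem oxygenase, was within 3.72 and 3.86 on all 6 arrays, with a log2 fold change of 0.02 ± 0.08 (SE). Blvra and Blvrb, which reduce biliverdin to bilirubin, had differences of -0.07 ± 0.13 and 0.23 ± 0.11 (SE). Ugt1a1, which conjugates bilirubin for excretion, was at 3.21, 3.03 and 2.90 in corn oil and at 3.32, 3.65 and 3.08 with phenolphthalein, a difference of 0.30 ± 0.17 (SE). None of these passed (limma adjusted p = 0.91, 0.844, 0.395 and 0.436).

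Over the whole list of other haem handling genes, which covers transport, scavenging, degradation and regulation, 36 of 40 were tested and none passed (limma). Unadjusted limma p was under 0.05 for 3 higher and 0 lower, beside 7.16% and 8.11% of all genes. With phenolphthalein the mean was higher in 24 and lower in 12, around a median log2 fold change of 0.07. Over all genes 51.8% had a higher mean. In 5 genes all phenolphthalein arrays lay above all corn oil arrays and in 1, Lonp1, they lay below, which is near the 12.2% of all genes in the first case and under the 11% in the second. Hp, haptoglobin, which binds free haemoglobin, differed by 0.23 ± 0.09 (SE), and Hccs, which attaches haem to cytochrome c, by 0.23 ± 0.09 (SE; limma adjusted p = 0.313 and 0.32). The second probe of Hccs had a difference of -0.70, set by a high value in corn oil replicate 3. Hamp, the iron hormone hepcidin, was at 6.36, 6.25 and 5.85 in corn oil and at 5.66, 8.71 and 6.76 with phenolphthalein, and its difference of 0.89 ± 0.75 (SE) came mostly from phenolphthalein replicate 2.

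**Figure D5:**
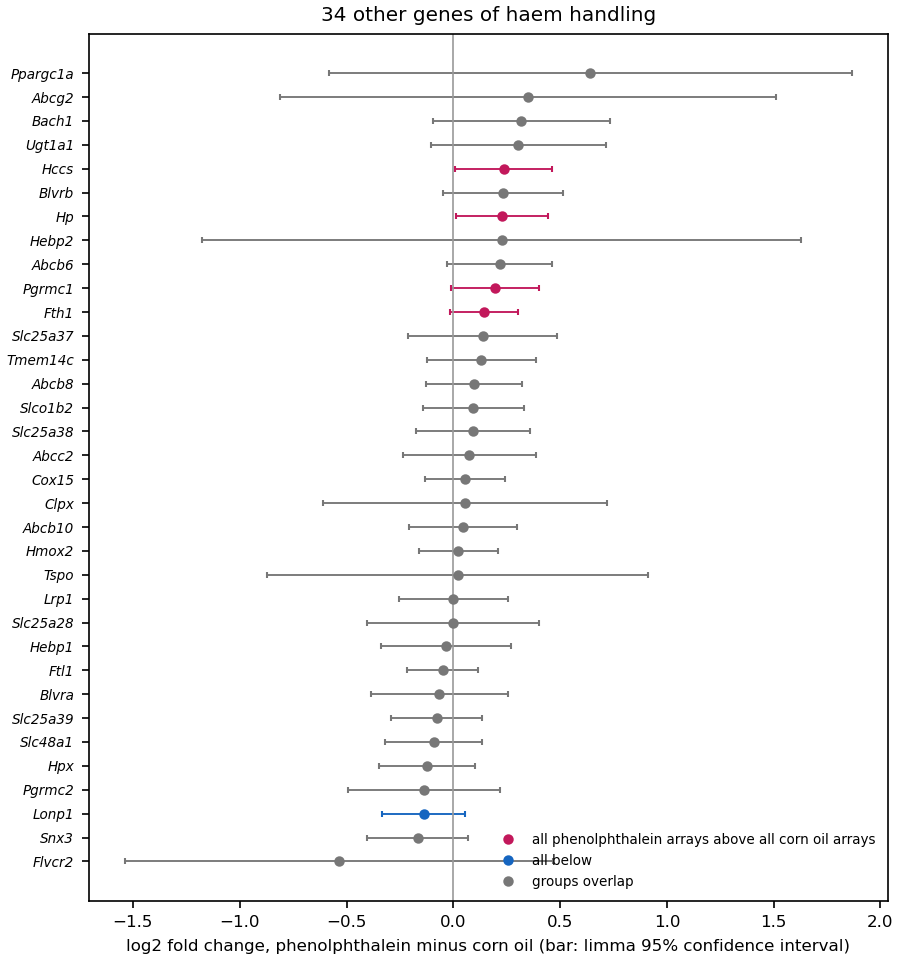
Log2 fold change of 34 of the 36 other haem handling genes tested, phenolphthalein minus corn oil (points), with limma's 95% confidence interval (bars). Pink marks the 4 plotted genes whose phenolphthalein arrays all lay above the corn oil arrays, blue the 1 gene where all lay below; no gene of the list passed the adjusted threshold.

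Haem proteins other than P450, together with some subunits of complexes that contain haem, were also compared. Of 26 listed, 21 were tested and none passed (limma). Unadjusted limma p was under 0.05 for 2 higher and 3 lower, beside 7.16% and 8.11% of all genes. Means were higher for 8 and lower for 13, with a median log2 fold change of -0.05. Groups did not overlap for 5 higher and 2 lower genes, beside 12.2% and 11% of all genes. Cyb5a, cytochrome b5, which hands electrons to P450 enzymes, was at 6.95, 6.79 and 7.06 in corn oil and at 7.37, 7.37 and 7.26 with phenolphthalein. Its difference was 0.40 ± 0.10 (SE), or 1.32-fold, without overlap (limma adjusted p = 0.198). Tdo2, tryptophan dioxygenase, a hepatocyte enzyme that needs haem, was at 6.21, 6.44 and 6.98 in corn oil and at 7.08, 7.48 and 7.33 with phenolphthalein, a difference of 0.75 ± 0.22 (SE; limma adjusted p = 0.239; named after its values were seen). The smallest p-values were those of Cyba, a subunit of the oxidase of phagocytes, at -0.49 ± 0.10 (SE), of Nos3, the nitric oxide synthase of endothelium, at -0.59 ± 0.13 (SE; limma adjusted p = 0.172 for both), and of Cyb5a.

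The genes whose pattern over the 6 arrays lay nearest to 3 members were taken by the root mean square (RMS) difference of deviations from each gene's own mean, over 11425 genes. For Alas1, whose own RMS deviation was 0.64, they were Rell1 at 0.17, Col4a4 at 0.25, Aloxe3 at 0.25, Klhl28 at 0.29 and Slc39a12 at 0.30. All 5 were dim, with levels between -5.65 and -2.87. For Alas2, with an RMS deviation of 0.35, they were Mex3b at 0.08, Padi6 and Slc22a8 at 0.10, and Bub1 and Bad at 0.11, none of them in the erythroid list. For Hmox1, with an RMS deviation of 0.34, they were Ptpro at 0.07, Ptgdr2 and Chit1 at 0.08, and Clec4a3 and Olr1057 at 0.09, none of them in the macrophage list. The marker lists are short and fixed, so absence from them does not show which cells make a gene. With 6 arrays among so many genes, close patterns are a description of these arrays.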

How the data were processed

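Liver RNA of 6 animals was measured on 1 Agilent array each. The authors' scanner files hold spot intensity. They were written by Agilent Feature Extraction, for which the submitters' processing notes give version 10.7 and the file headers 10.7.1.1. Per the file headers, background had been subtracted and a spatial trend removed from the processed signal, the intensity used here. The authors' deposited value table matched this intensity after division by a constant for each array, so it is linear, not centred per gene and in the same direction; its column medians were 0.0984, 0.101 and 0.102 for corn oil and 0.0954, 0.0941 and 0.0959 for phenolphthalein.

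The log2 values were computed here from the deposited intensity: log2 of the processed signal minus the array's 75th percentile over 61657 spots other than controls, with outlier-marked spots (4 to 14 per array) set missing and no spot saturated. The 75th percentile was 622, 636 and 595 in corn oil and 578, 562 and 551 with phenolphthalein, and 62.1% to 65.1% of probes were well above background. On 2 arrays a column of spots was dim; no member probe lay in it. Probes were named by unversioned accession through a RefSeq table of assembly GRCr8 (27460 probes to 1 gene, 0 to several, 34197 to none). A probe was kept if it was well above background on 3 or more of the 6 arrays, and the brightest kept probe stood for its gene.

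Genes were fitted in limma 3.58.1 (R 4.3.3) with lmFit and eBayes over all 11434 genes, and every named probe in a second fit over 19541, with Benjamini-Hochberg adjustment at 0.05. The fit was tested on simulated data. P-values rest on the spread between 3 animals per group, moderated by eBayes over all genes fitted, and the number of animals limits the precision. As each group had its own slide, they do not measure the spread between slides. The members and the gene lists were chosen with earlier results of these data known. Named are all members, the 3 genes with the smallest p of each list, 14 genes of P450 induction, haem breakdown and iron, and the 5 genes nearest in pattern to Alas1, Alas2 and Hmox1; other genes were named after their values were seen, and a few listed genes are not reported here. Some genes stand in 2 lists, such as Slc25a37, Fth1, Ftl1, Bach1, Hpx, Hnf4a and Ppargc1a. Alternatives were normexp background correction with an offset of 50 (on the median spot signal), quantile normalization, a median shift, dim probes unfiltered or filtered on all 6 arrays, gene values averaged over probes, eBayes with trend and robust prior, outlier-marked spots retained, the deposited value table, arrays left out singly, and a block by replicate number. Leaving out replicate 3 of each group, and testing accessions without a gene name too, were added after seeing the data.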

Additional observations from a re-analysis of the deposited data

How the results depend on the processing

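None of the 9 genes passed in any of the 18 alternatives, and none of the 11 probes in any of 16. The median log2 fold change of the members was 0.006 with normexp and 0.14 after a median shift, which moved the median of all genes from 0.0096 to 0.0678; without each array in turn it was 0.07 to 0.115. Members whose groups did not overlap fell from 5 to 1 with normexp and to 3 when a gene's probes were averaged, and were 5 to 6 without single arrays. The median of the haem handling list was 0.123 after a median shift and 0.134 without corn oil replicate 2 (0.039 to 0.134 over arrays left out). Signs turned, with no call, for Uros without replicate 3 of each group (0.045, chosen after the data were seen), for Fech with normexp (-0.017), without corn oil replicate 3 (-0.018) and when phenolphthalein replicate 2 was left out (-0.105; 0.18 at most), for Ppox probe A_44_P231143 without phenolphthalein replicate 1 (0.009; -0.119 at least), and for Urod probe A_44_P1047723 after a median shift (0.057), without corn oil replicate 2 (0.015) and when phenolphthalein replicate 2 was left out (0.023; -0.019 at least). The cause was not tested. Alas1, Alas2 and Hmox1 kept their sign in all 18 alternatives, at 0.255 to 1.147, -0.622 to -0.186 and -0.659 to -0.272, with adjusted p of 0.216 to 0.812, 0.357 to 0.688 and 0.294 to 0.558. The labels do not say whether replicate numbers pair animals across groups. Deviations of same-numbered samples correlated at -0.0245, 0.0165 and -0.0035, and those of differently numbered samples at -0.0634 to 0.0677. Such values over all genes showed no pairing but cannot exclude it. With the replicate number as a block, 0 members and 0 genes in all passed, against 7 genes without the block. Alas1, Alas2 and Hmox1 then had limma adjusted p of 0.405, 0.357 and 0.365. The Cyp2b1 and Cyp2b2 calls were lost with the block, at adjusted p of 0.167 for both, and leaving out 1 array gave 0 calls over all genes (corn oil 1, corn oil 3 or phenolphthalein 1), 1 call (corn oil 2 or phenolphthalein 2) or 6 calls (phenolphthalein 3).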
